A study of Mus musculus with 4 samples.

Results

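The 10 genes described here encode proteins that the visceral endoderm secretes: Afp, Ttr, Rbp4, Trf, Apoa1, Apoa2, Apob, Apoc2, Apoe and Apom. They were chosen by name from the 37224 Ensembl gene identifiers measured, and all 10 were found. Gene expression was measured by RNA sequencing in Smg6-deficient mouse ES cells (2 libraries) and in wild-type mouse ES cells (2 libraries), and the study compared the genotypes. ES cells are pluripotent cells grown from the early embryo, and Smg6 is an endonuclease that cuts messenger RNAs marked for nonsense-mediated decay. The labels give no strain, cell line, passage, culture condition or allele, and do not say how Smg6 was removed or whether replicates came from separate cultures or clones. The p-values below therefore rest on how much these libraries vary, and that variation may be technical only.

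The visceral endoderm is the epithelium that wraps the early mouse embryo and later lines the yolk sac. It takes up maternal nutrients through endocytic receptors and secretes carrier proteins and lipoproteins that the liver supplies after birth. Apolipoproteins are the proteins of lipoprotein particles, which carry lipid through body fluids. Transcription factors of the Gata and Foxa families and the nuclear receptor Hnf4a are known regulators of this secretory programme in endoderm and liver.

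The libraries held 155391181 and 137937779 counted reads in Smg6-deficient cells and 137643993 and 130888768 in wild-type cells. Reads counted over the whole Smg6 gene came to 87.6 and 86.2 CPM (counts scaled to a common library size) in Smg6-deficient cells, against 95.7 and 105.1 CPM in wild-type cells. This difference did not pass the test (log2 fold change -0.21 ± 0.08 SE; adjusted p = 0.089 by edgeR), and a total over all exons does not reveal whether part of the gene is missing, so it does not check the genotype label. The ES cell identity was checked with 14 marker genes, all of which were detected, and their summed level was 4432 and 4372 CPM in Smg6-deficient cells, against 6915 and 5930 CPM in wild-type cells. Of these markers 9 were lower and 2 higher, and Nanog, a core pluripotency factor, fell by 2.04 on the log2 scale (edgeR adjusted p = 0.00025). Genes on chromosome X had a median log2 fold change of -0.76 over 1040 tested genes, whereas the median over all 20895 tested genes was 0.01. None of the 10 secreted-protein genes lies on chromosome X.

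The bases upstream of the start site are shown for 3 of the genes: Apoa2, whose rise was called under every setting tried, Apoc2, which had the largest fall, and Afp, the classic marker of the visceral endoderm. Each line gives the 250 bases before the RefSeq transcript start on the gene's strand, from the RefSeq promoter table (GRCm38.p6), for chr1:171224804-171225053 (plus strand, Apoa2), chr7:19677942-19678191 (minus strand, Apoc2) and chr5:90490464-90490713 (plus strand, Afp). Capitals mark letters that match a searched motif.
Apoa2: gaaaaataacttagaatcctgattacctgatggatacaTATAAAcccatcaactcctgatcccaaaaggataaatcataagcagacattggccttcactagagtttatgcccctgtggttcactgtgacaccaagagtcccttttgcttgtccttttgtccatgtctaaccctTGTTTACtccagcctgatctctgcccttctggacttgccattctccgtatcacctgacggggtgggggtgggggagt
Apoc2: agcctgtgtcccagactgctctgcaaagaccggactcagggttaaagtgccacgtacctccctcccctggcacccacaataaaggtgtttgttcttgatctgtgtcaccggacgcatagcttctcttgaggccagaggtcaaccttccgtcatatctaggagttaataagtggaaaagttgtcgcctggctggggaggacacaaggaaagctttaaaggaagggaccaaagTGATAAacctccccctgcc
Afp: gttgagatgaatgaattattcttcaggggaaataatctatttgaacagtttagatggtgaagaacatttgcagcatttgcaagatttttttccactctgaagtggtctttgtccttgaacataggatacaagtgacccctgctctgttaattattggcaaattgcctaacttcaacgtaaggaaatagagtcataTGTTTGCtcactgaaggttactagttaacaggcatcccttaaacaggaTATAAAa

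The motifs searched, on both strands, were AGATAA and TGATAA for GATA factors, TGTTTAC and TGTTTGC for FOXA, CAAAGTCC for HNF4, ATTGTT for SOX and TATAAA for a TATA box. No motif is contained in another, and no matches overlapped in the lines shown. The Apoa2 window held TGTTTAC with its first base at -77 from the start and TATAAA at -212. The Apoc2 window held TGATAA at -19. The Afp window held TGTTTGC at -55 and TATAAA at -7, counted from the RefSeq start, or -78 and -30 from the GENCODE start. Over the 32851 upstream windows of that length, TGTTTAC was found in 3.2%, TGTTTGC in 4.3%, TGATAA in 7.9%, either GATA motif in 16.6%, ATTGTT in 9.4%, TATAAA in 12.4% and CAAAGTCC in 1.2%. RefSeq windows were searched for 8 of the 10 genes. Trf had no entry, and Ttr, on chromosome 18, was left out of the search, so the counts below do not cover it. FOXA letters were in 5 of these 8 windows (Apoa2, Afp, Apoa1, Apob and Rbp4), against 7.3% of all windows, and these 5 genes include 1 that was higher, 2 that were lower and 2 that did not pass the test. GATA letters were in 1 of the 8 windows (16.6% of all windows) and TATA letters in 3 (12.4%). HNF4 letters were in 0 of the 8 windows (1.2% of all windows) and SOX letters in 0 (9.4%). The windows of Apoe and Apom held none of the letters. For Apom the RefSeq start lies 249 nt inside the GENCODE gene, so its window lies almost wholly within that gene. The bases before the GENCODE start of Apom were therefore hardly searched. In Rbp4 the FOXA letters lie at -241 from the RefSeq start, or -281 from the GENCODE start. A match describes the sequence and is not evidence that a factor binds there.

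The secreted-protein genes did not move as a block. Of the 10 genes, 2 were higher in Smg6-deficient cells (Apoa2 and Ttr), 5 were lower (Afp, Rbp4, Apoc2, Apoe and Apom) and 3 did not pass the test (Trf, Apoa1 and Apob), by edgeR's quasi-likelihood test with p-values adjusted over all tested genes and 0.05 as the threshold. In the same comparison 20.5% of all 20895 tested genes were higher and 19.2% were lower, so the higher share of these genes (20%) was close to the background and the lower share (50%) was above it. The median log2 fold change was -0.65 over the 10 genes. The libraries of the genotypes did not overlap for 9 of the 10 genes, against 73.2% of all tested genes. All 10 passed the filter on low counts, but Ttr passed it only through the Smg6-deficient libraries, where it was higher, so its place among the higher genes supports no count. In bulk RNA a lower value can come from fewer cells that express a gene or from less RNA in each cell, and these cannot be told apart.

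**Figure D1:**
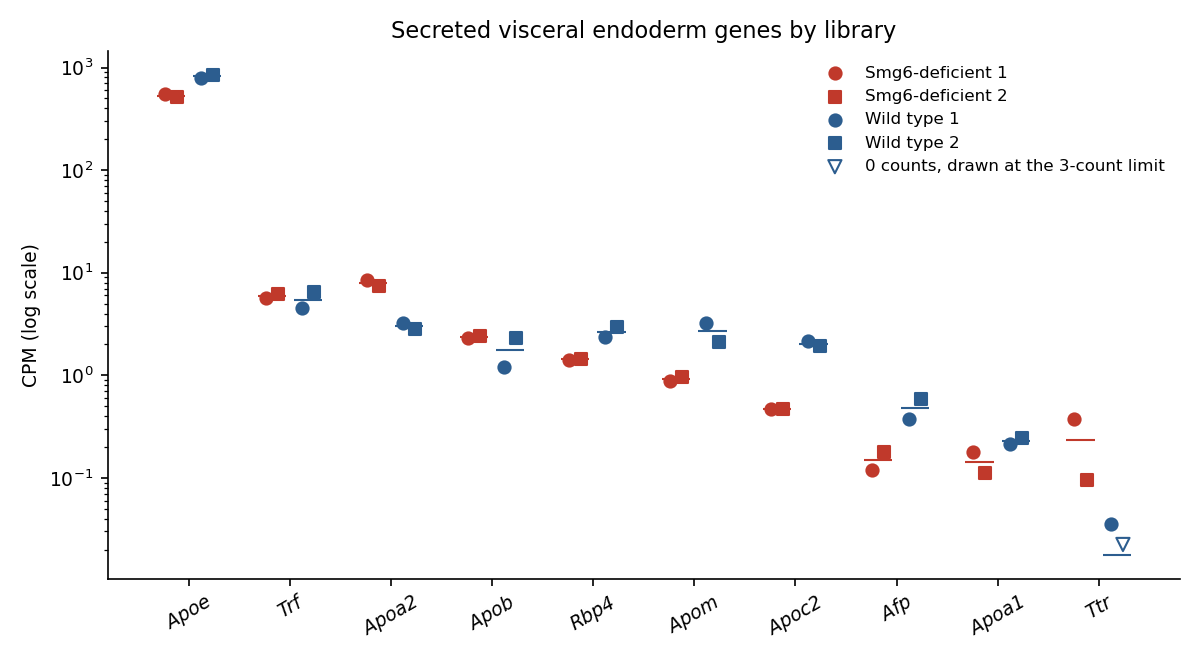
Level of each of the 10 genes in each library, in CPM on a log axis, with Smg6-deficient libraries in red on the left of each gene, wild-type libraries in blue on the right and a short line at each group mean. Apoe lies far above the other genes, and the open triangle marks Ttr in wild-type replicate 2, which had 0 counts and is drawn at the level of 3 counts.

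Alpha-fetoprotein (Afp; ENSMUSG00000054932, chr5:90490737-90508907, plus strand), a fetal relative of serum albumin, had 18 and 24 counts in Smg6-deficient cells, against 52 and 78 counts in wild-type cells. In CPM these were 0.118 and 0.178 in Smg6-deficient cells and 0.371 and 0.583 in wild-type cells. Both Smg6-deficient libraries lay below both wild-type libraries. Afp fell by 1.69 ± 0.38 (SE) on the log2 scale (95% interval -2.60 to -0.78, edgeR adjusted p = 0.013). Leaving out Smg6-deficient replicate 1 ended the call (log2 fold change -1.41, edgeR adjusted p = 0.077). An annotated antisense locus, Gm43449, overlaps Afp, and since the libraries do not mark strand, some of these few reads could come from it.

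Transthyretin (Ttr; ENSMUSG00000061808, chr18:20665280-20674321, plus strand), a carrier of thyroid hormone and of retinol-binding protein, had 57 and 13 counts in Smg6-deficient cells, against 5 and 0 counts in wild-type cells. A count of 0 in wild-type replicate 2 allows a level of up to 0.0224 CPM, for counting error only. Ttr was higher in both Smg6-deficient libraries, and those libraries differed from each other by more than for any other of the 10 genes. The log2 fold change was 3.64 ± 1.04 (SE), with a 95% interval of 1.17 to 6.11 and an edgeR adjusted p of 0.031. The call rested on few reads: without Smg6-deficient replicate 1 the value was 2.36 (edgeR adjusted p = 0.15), without wild-type replicate 2 it was 2.69 (edgeR adjusted p = 0.051), and without wild-type replicate 1, which leaves a wild-type count of 0, it was 8.08 (edgeR adjusted p = 0.0099).

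Retinol-binding protein 4 (Rbp4; ENSMUSG00000024990, chr19:38116629-38125281, minus strand) carries retinol in plasma. Its level was 1.42 and 1.44 CPM in Smg6-deficient cells, against 2.37 and 2.94 CPM in wild-type cells, with no overlap between genotypes. Rbp4 fell by 0.89 ± 0.19 (SE) on the log2 scale (95% interval -1.34 to -0.44, edgeR adjusted p = 0.011). Without Smg6-deficient replicate 1 the size was close (-0.87) but the edgeR adjusted p was 0.055.

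Transferrin (Trf; ENSMUSG00000032554, chr9:103204001-103230444, minus strand), the iron carrier of plasma, had 5.70 and 6.13 CPM in Smg6-deficient cells, against 4.51 and 6.43 CPM in wild-type cells. The Smg6-deficient values lay between the wild-type values, so the genotypes overlapped. The log2 fold change was 0.11 ± 0.19 (SE), with a 95% interval of -0.34 to 0.57 and an edgeR adjusted p of 0.66, and without wild-type replicate 1 the sign turned (-0.11). An annotated coding locus, Gm20425, overlaps Trf on the same strand and also overlaps the neighbouring gene Srprb. How the authors' counting divided reads among them is not given in the sources used here. Gm20425 had 28.4 and 30.2 CPM in Smg6-deficient cells, against 28.1 and 32.5 CPM in wild-type cells.

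Apolipoproteins of high-density lipoprotein went in different directions. Apoa2 (ENSMUSG00000005681, chr1:171225054-171226379, plus strand), a structural protein of these particles, had 1284 and 993 counts in Smg6-deficient cells, against 453 and 376 counts in wild-type cells. Its level was 8.42 and 7.35 CPM in Smg6-deficient cells and 3.24 and 2.81 CPM in wild-type cells, so that the lower Smg6-deficient library was still above both wild-type libraries. Apoa2 rose by 1.38 ± 0.15 (SE) on the log2 scale, a 2.61-fold higher level (95% interval on the log2 scale 1.02 to 1.74, edgeR adjusted p = 0.00099). Leaving out any library gave log2 fold changes of 1.27 or more with the call kept.

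Apoa1 (ENSMUSG00000032083, chr9:46228580-46230466, plus strand), the main protein of high-density lipoprotein, was near the lower end of detection, with 27 and 15 counts in Smg6-deficient cells, against 30 and 33 counts in wild-type cells. Scaled for depth, these were 0.177 and 0.111 CPM in Smg6-deficient cells and 0.214 and 0.247 CPM in wild-type cells. Although the genotypes did not overlap, the difference did not pass the test (log2 fold change -0.66 ± 0.37 SE, 95% interval -1.55 to 0.22, edgeR adjusted p = 0.20). Apom (ENSMUSG00000024391, chr17:35128997-35132050, minus strand), a lipocalin that carries sphingosine-1-phosphate on the same particles, had 0.878 and 0.955 CPM in Smg6-deficient cells, against 3.24 and 2.12 CPM in wild-type cells. Apom fell by 1.55 ± 0.25 (SE) on the log2 scale (95% interval -2.15 to -0.95, edgeR adjusted p = 0.0040).

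Apob (ENSMUSG00000020609, chr12:7977648-8016835, plus strand), the scaffold on which chylomicrons and very-low-density lipoprotein are built, had 2.32 and 2.42 CPM in Smg6-deficient cells, against 1.21 and 2.29 CPM in wild-type cells. The Smg6-deficient libraries were nearly equal, and wild-type replicate 2 lay just below them while wild-type replicate 1 was far lower. The log2 fold change was 0.44 ± 0.30 (SE), with a 95% interval of -0.27 to 1.15 and an edgeR adjusted p of 0.28. The value depended on which wild-type library was kept: it was 0.95 without wild-type replicate 2 (edgeR adjusted p = 0.0037) and 0.07 without wild-type replicate 1 (edgeR adjusted p = 0.78).

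Apoc2 (ENSMUSG00000002992, chr7:19671579-19677941, minus strand), the activator of lipoprotein lipase, had the largest fall among the 10 genes. It had 72 and 63 counts in Smg6-deficient cells, against 299 and 260 counts in wild-type cells, or 0.472 and 0.467 CPM in Smg6-deficient cells and 2.14 and 1.94 CPM in wild-type cells. The replicates of each genotype were close together and the genotypes were far apart. Apoc2 fell by 2.12 ± 0.21 (SE) on the log2 scale, a 4.34-fold lower level (95% interval on the log2 scale -2.61 to -1.63, edgeR adjusted p = 0.00065). An annotated coding locus on the same strand, Gm44805, overlaps both Apoc2 and its neighbour Apoc4 and was not among the measured genes. The counts of Apoc2 could hold reads from Apoc2 or from Gm44805.

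Apoe (ENSMUSG00000002985, chr7:19696109-19699188, minus strand), the ligand through which lipoprotein particles bind receptors of the LDL receptor family, was by far the most abundant. It had 84114 and 69314 counts in Smg6-deficient cells, against 111047 and 113838 counts in wild-type cells. Its level was 551.4 and 513.3 CPM in Smg6-deficient cells and 793.2 and 850.6 CPM in wild-type cells, with a clear gap between the genotypes. Apoe fell by 0.63 ± 0.09 (SE) on the log2 scale, a 1.54-fold lower level (95% interval on the log2 scale -0.84 to -0.41, edgeR adjusted p = 0.0025), and the call was kept without each library in turn.

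**Figure D2:**
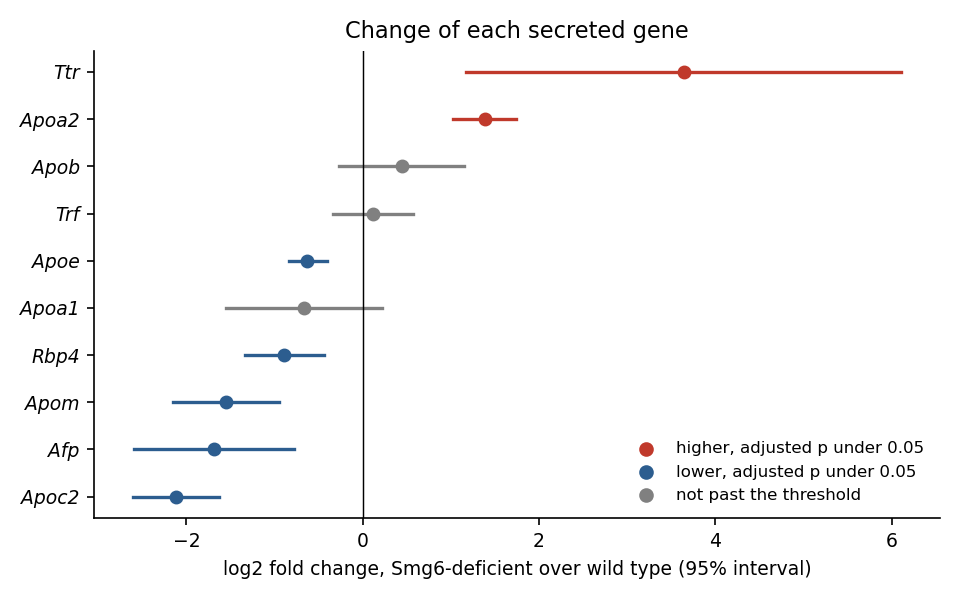
Log2 fold change of each gene, Smg6-deficient over wild type, with its 95% interval from the edgeR fit, in red for higher, blue for lower and grey for not past the threshold. Intervals of Ttr and Apoa2 lie above 0, those of 5 genes lie below 0, and Ttr has the widest interval (1.17 to 6.11).

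Levels between genes were compared per length, as RPKM (reads scaled by gene length and by library size, as deposited). Apoe had 238.6 and 210.7 RPKM in Smg6-deficient cells, against 355.8 and 358.4 RPKM in wild-type cells, which placed its mean at percentile 99.5 of tested genes in Smg6-deficient cells and 99.7 in wild-type cells. Apoa2 came next, with 13.4 and 11.1 RPKM in Smg6-deficient cells and 5.35 and 4.36 RPKM in wild-type cells, and its percentile was 75.4 in Smg6-deficient cells and 58.6 in wild-type cells. These 2 genes stood apart from the others in all libraries.

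In wild-type cells the mean RPKM values then ran from Apom (2.26) through Apoc2 (1.89), Rbp4 (1.76) and Trf (1.42), and neighbours in this order overlapped or met between libraries, so that their order in wild-type cells is not resolved. In Smg6-deficient cells Trf led this middle group with 1.48 and 1.51 RPKM, followed by Rbp4 with 0.94 and 0.90, Apom with 0.73 and 0.75 and Apoc2 with 0.43 and 0.41, with no overlap between neighbours in this order. Afp, Apoa1, Apob and Ttr were low in all libraries, between 0 and 0.26 RPKM. Afp and Ttr, which mark mature visceral endoderm, were at percentiles 7.2 (Afp) and 16 (Ttr) of tested genes in Smg6-deficient cells, against 16 (Afp) and 0.5 (Ttr) in wild-type cells.

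Reads from Apoe were 96.5% and 96.4% of the reads of the 10 genes together in Smg6-deficient cells, against 97.9% and 97.8% in wild-type cells. The 10 genes took 0.0561% and 0.0521% of all counted reads in Smg6-deficient cells and 0.0824% and 0.0890% in wild-type cells. Without Apoe, the other 9 genes had 3033 and 2587 counts in Smg6-deficient cells and 2425 and 2591 counts in wild-type cells. A summed level of the group is therefore mainly a reading of Apoe.

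Regulators of the visceral endoderm were set beside these values. For this list and those that follow, the shares over all tested genes were 20.5% higher and 19.2% lower. Of 23 transcription factors listed for this tissue, all tested, 11 were higher and 2 were lower, and the median log2 fold change was 0.77. Gata6, which drives primitive endoderm, had 25.7 and 52.0 CPM in Smg6-deficient cells, against 2.86 and 2.05 CPM in wild-type cells (log2 fold change 3.98 ± 0.36 SE, edgeR adjusted p = 0.00054). Gata4 rose by 3.97, Sox17 by 4.49, Foxa2 by 3.62, Sox7 by 2.55 and Foxa3 by 1.49 on the log2 scale, each with an edgeR adjusted p of 0.0020 or less. Onecut1 (1.06), Nr1h3 (1.03) and Hhex (0.59) were also called higher, with calls that ended when a single library was left out: Hhex without either Smg6-deficient library, Nr1h3 without Smg6-deficient replicate 2 and Onecut1 without either Smg6-deficient library or wild-type replicate 1. The count of regulators that were lower, 2, was 1 without Smg6-deficient replicate 1 and 5 without wild-type replicate 2.

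Hnf4a, a nuclear receptor known to activate apolipoprotein and other secreted-protein genes in visceral endoderm and liver, went the other way. It had 0.911 and 1.30 CPM in Smg6-deficient cells, against 1.81 and 3.03 CPM in wild-type cells. On the log2 scale Hnf4a fell by 1.13 ± 0.31 (SE; edgeR adjusted p = 0.026), and leaving out Smg6-deficient replicate 1 ended this call (-0.88, edgeR adjusted p = 0.078). Eomes, the other regulator that was lower, fell by 1.42 (edgeR adjusted p = 0.0027).

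Markers of the visceral endoderm that are not secreted carriers were also higher. Of 14 tested markers 10 were higher and 1 was lower (0 without Smg6-deficient replicate 2, 2 without wild-type replicate 2; median log2 fold change 1.63), and their summed level was 736 and 949.9 CPM in Smg6-deficient cells, against 298.1 and 259 CPM in wild-type cells. Cubn, the cubilin receptor that takes up apolipoprotein A-I and transferrin, had 98.6 and 198.5 CPM in Smg6-deficient cells, against 5.11 and 4.49 CPM in wild-type cells (log2 fold change 4.95 ± 0.35 SE, edgeR adjusted p = 0.00027). Lrp2, the megalin receptor that binds the retinol-binding protein and apolipoproteins among many ligands, rose by 3.02 (edgeR adjusted p = 8.6e-05). S100g, among the 10 markers called higher, had 112 and 175 counts in Smg6-deficient cells, against 19 and 9 in wild-type cells. It would not have passed the filter on low counts without the Smg6-deficient libraries, so its place supports no count. Markers of the parietal endoderm, the other extraembryonic endoderm lineage, were higher for 12 of 17 genes (median 1.19), and the other 5 did not pass the test. Whether these endoderm genes and the secreted-protein genes were expressed in the same cells cannot be told apart in bulk RNA.

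The Smg6-deficient libraries differed between replicates for the endoderm genes. All 10 visceral endoderm markers called higher had more CPM in replicate 2 than in replicate 1, with a median log2 ratio of 0.74, and so did 9 of the 11 regulators called higher (median 0.77). Over all tested genes of these lists, called or not, the median ratio was 0.56 for the markers and 0.11 for the regulators. The 10 secreted-protein genes had a median log2 ratio of 0 between the same libraries, with 5 genes above 0 and 7 within 0.2. Afp (0.59), Apoa1 (-0.67) and Ttr (-1.96) were the 3 exceptions with a ratio over 0.5 in size, and all 3 have few counts. Ttr and Apoa2, the genes called higher, both had less in replicate 2, by -1.96 and -0.19.

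**Figure D3:**
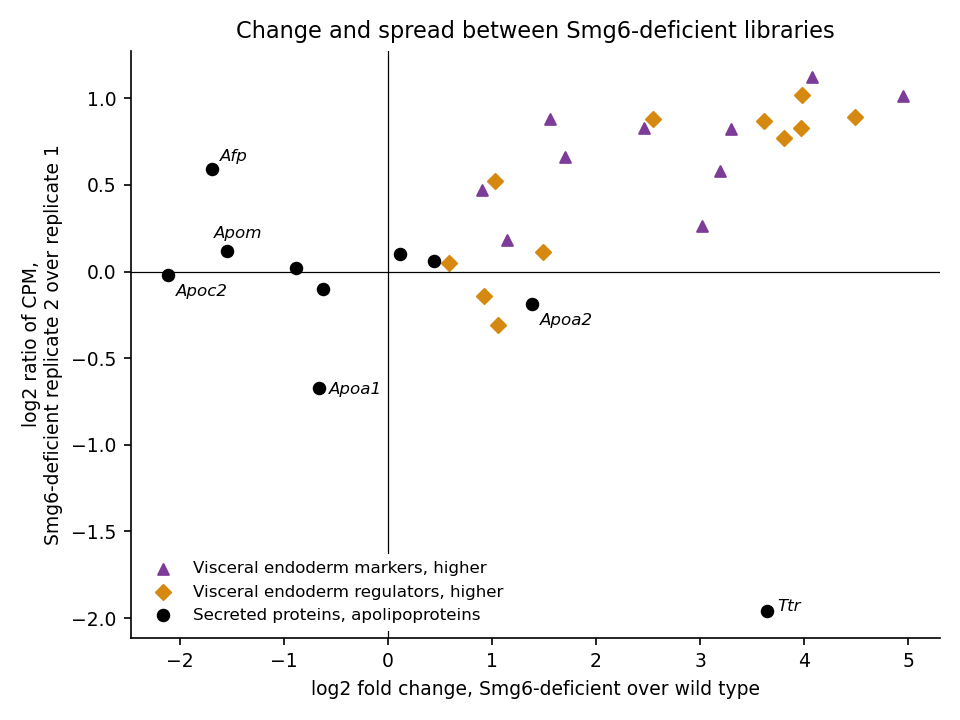
Log2 fold change (x axis, Smg6-deficient over wild type) against the log2 ratio of CPM between Smg6-deficient replicates 2 and 1 (y axis) for the 10 secreted-protein genes (black) and for visceral endoderm markers (purple) and regulators (orange) that were called higher. The markers lie above 0 on the y axis with a median of 0.74, whereas 7 of the 10 secreted-protein genes lie within 0.2 of 0.

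Other apolipoproteins moved in both directions. Of 16 listed genes 11 were tested, of which 3 were higher and 3 lower (median log2 fold change 0.21), and Apoa4, Apoa5, Apoc3, Apof and Apol9b were too low to test. Clusterin (Clu), a secreted chaperone also called apolipoprotein J, had 68.9 and 75.7 CPM in Smg6-deficient cells, against 42.4 and 39.2 CPM in wild-type cells and rose by 0.83 (edgeR adjusted p = 0.0010). Apon rose by 1.29 (edgeR adjusted p = 0.0097) and Apol6 by 0.97 (edgeR adjusted p = 0.042), and the Apol6 call ended without either Smg6-deficient library and without wild-type replicate 2. Apod, a lipocalin, had 2.41 and 1.84 CPM in Smg6-deficient cells, against 11.2 and 10.4 CPM in wild-type cells and fell by 2.34 (edgeR adjusted p = 0.00029). Apool (fell by 1.39) and Apoo (fell by 1.18) encode mitochondrial inner-membrane proteins and lie on chromosome X, where the median gene fell by 0.76.

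Genes for building lipoproteins were higher more often than lower. Of 20 tested genes for lipid loading and export of particles 11 were higher and 2 lower (median 0.29), although 3 were higher without Smg6-deficient replicate 2, 6 without replicate 1 and 4 by limma-trend on RPKM, and 1 was lower without either of these libraries. Pla2g12b, which is needed for lipid loading of liver lipoproteins in mice, rose by 1.56, Arfrp1, a small GTPase of the Golgi, by 0.96 and Sec24d, a coat protein of vesicles leaving the endoplasmic reticulum, by 0.72, each with an edgeR adjusted p of 0.0022 or less. Dgat2, which makes triglyceride, fell by 0.99 (edgeR adjusted p = 0.0015). Among 19 tested lipoprotein receptors and lipases 4 were higher and 3 lower, with a median of 0.26. Over all tested genes 20.5% were higher and 19.2% lower, so these counts do not set the list of receptors and lipases apart. In that list 1 was higher without Smg6-deficient replicate 1, and 5 were lower without wild-type replicate 1. Lpl, the lipase that Apoc2 activates, had 7.57 and 4.83 CPM in Smg6-deficient cells, against 18.1 and 21.4 CPM in wild-type cells and fell by 1.67 (edgeR adjusted p = 0.0018). Lipc, hepatic lipase, fell by 2.14 (edgeR adjusted p = 0.0018), and Pltp, which transfers phospholipid between particles, rose by 0.39 (edgeR adjusted p = 0.013), a call that ended when Smg6-deficient replicate 1 was left out (0.33, edgeR adjusted p = 0.14).

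The partners of Rbp4 and Ttr in retinol handling were split. Of 18 tested genes of retinol and retinoic acid metabolism 7 were higher and 6 lower (median 0.35). Bco1, among the 6 lower, had 7 and 9 counts in Smg6-deficient cells, against 30 and 22 in wild-type cells. It passed the filter on low counts only through the wild-type libraries, so its place supports no count. Stra6, the membrane receptor for Rbp4, had 5.05 and 5.45 CPM in Smg6-deficient cells, against 0.664 and 0.501 CPM in wild-type cells, so the receptor rose (log2 fold change 3.17 ± 0.20 SE, edgeR adjusted p = 0.00023) where its ligand fell. Cyp26a1, which degrades retinoic acid, rose by 2.57 and the receptor gene Rarg by 1.35, whereas Aldh1a2, which makes retinoic acid, fell by 1.41, each with an edgeR adjusted p of 0.0013 or less.

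Of 15 tested genes of iron transport, to which Trf belongs by function, 4 were higher and 3 lower (median 0.03). The shares over all tested genes were 20.5% higher and 19.2% lower, so these counts do not set the list apart. In this list 1 gene lies on chromosome X, where the median log2 fold change was -0.76. The iron exporter Slc40a1 rose by 1.58, the metal transporter Slc39a14 by 0.73 and Bmp6, an inducer of hepcidin in liver, by 1.73, while the ferrireductase Steap3 fell by 1.02, each with an edgeR adjusted p of 0.0043 or less. Tfrc, the receptor for transferrin, was picked after its value was seen: it averaged 447.1 CPM in Smg6-deficient cells and 562.3 CPM in wild-type cells. Its log2 fold change was -0.33 (edgeR adjusted p = 0.037), and it is among the 3 lower genes.

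Other plasma proteins that visceral endoderm or liver secrete were lower more often than higher. Of 39 listed genes 24 could be tested, of which 8 were lower and 1 was higher (median log2 fold change -0.34). Fga, among the 8 lower, had 0 and 3 counts in Smg6-deficient cells, against 11 and 10 in wild-type cells. Itih4, also lower, had 14 and 9 counts in Smg6-deficient cells, against 37 and 80 in wild-type cells. Neither would have passed the filter on low counts without the wild-type libraries, so their places support no count. With all libraries, the other filters, scalings and tests gave 5 to 9 lower. The count that was higher was 2 without wild-type replicate 1 and 3 without wild-type replicate 2. Fetub, a protease inhibitor, had 9.29 and 8.41 CPM in Smg6-deficient cells, against 22.7 and 21.3 CPM in wild-type cells and fell by 1.32 (edgeR adjusted p = 0.00040). The fibrinogen chain Fgg fell by 2.93, and the broad protease inhibitors A2m and Pzp fell by 1.49 and 2.24, each with an edgeR adjusted p of 0.0013 or less. Alb, the gene of serum albumin, which lies beside Afp, had 8 and 7 counts in Smg6-deficient cells, against 3 and 4 in wild-type cells and was not tested. Serpina1a, Serpina1b and Serpina1c, which encode alpha-1-antitrypsin, had 0 counts in all libraries.

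**Figure D4:**
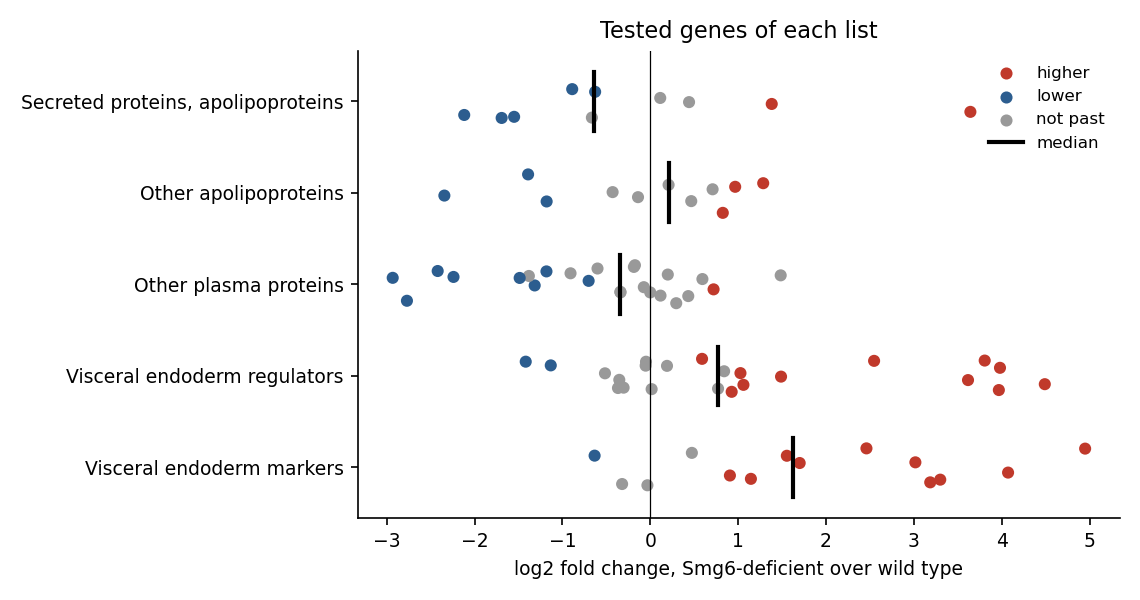
Log2 fold change (Smg6-deficient over wild type) of each tested gene in 5 lists, with higher genes in red, lower genes in blue, genes not past the threshold in grey and a black bar at each median. The medians are -0.65 for the secreted proteins and apolipoproteins and -0.34 for other plasma proteins, against 0.77 for visceral endoderm regulators and 1.63 for visceral endoderm markers.

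Markers of other cells that make these proteins were measured in the same libraries. Hepatocyte markers, of which 10 of 18 could be tested, were lower for 5, while the other 5 did not pass the test (median -0.73), with a summed level of 57.9 and 63.9 CPM in Smg6-deficient cells, against 78.2 and 75.7 CPM in wild-type cells, and Cyp3a11 and Serpina3k were at 0. Pck1, among the 5 lower, had 2 and 4 counts in Smg6-deficient cells, against 16 and 23 in wild-type cells. It passed the filter on low counts only through the wild-type libraries, so its place supports no count. The 5 lower became 2 without Smg6-deficient replicate 1 and 3 without wild-type replicate 2. Ass1, a urea cycle enzyme of wide expression, made up most of that sum, with 36.0 and 37.1 CPM in Smg6-deficient cells and 56.0 and 53.3 CPM in wild-type cells. Macrophage markers, since macrophages make Apoe, were higher for 1 and lower for 2 of 11 tested genes (median -0.11), or lower for 1 without Smg6-deficient replicate 1 and higher for 2 without Smg6-deficient replicate 2 or wild-type replicate 1, and their sum was 47.2 and 44.6 CPM in Smg6-deficient cells, against 52.3 and 49.6 CPM in wild-type cells. Fibroblast and feeder-cell markers were higher for 4 of 14, while the other 10 did not pass the test (median 0.39), and their sum was 1365 and 1246 CPM in Smg6-deficient cells, against 1117 and 822.8 CPM in wild-type cells. Leaving out Smg6-deficient replicate 1 left 1 of these fibroblast genes higher, and leaving out wild-type replicate 1 left 10. Trophectoderm markers were higher for 3 and lower for 4 of 9 tested genes (median 0.03), or lower for 2 without either Smg6-deficient library, with a sum of 115.8 and 93.4 CPM in Smg6-deficient cells and 177.9 and 122.3 CPM in wild-type cells. The part of these cell types in the values of the secreted-protein genes was not tested.

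The genomic neighbours of the genes were measured to see which changes extended along the chromosome. Within 30 kb of the 10 genes lie 31 other coding genes that were measured, of which 27 were tested, 8 were higher and 2 were lower. Over all tested genes 20.5% were higher and 19.2% lower, so some called neighbours are found near most genes. Around Apoa2, Tomm40l, at 2539 nt, rose by 0.95 (edgeR adjusted p = 0.0029) and Nr1i3, which encodes the nuclear receptor CAR, rose by 0.92 (edgeR adjusted p = 0.0047). On the other side Fcer1g (-0.11) did not pass the test. Pcp4l1 (0.76) and Adamts4 (0.67) were called with edgeR adjusted p-values of 0.031 and 0.017, and both calls ended without either Smg6-deficient library. Tomm40l and Nr1i3 overlap each other on opposite strands, and without strand their reads cannot be told apart, so these may not be separate rises. Their log2 fold changes were smaller than that of Apoa2, and the difference was not tested.

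Apoe and Apoc2 lie 18167 nt apart in a cluster on chromosome 7 with Apoc1 and Apoc4 between them. Apoc1, a small apolipoprotein that inhibits lipoprotein clearance, had 19.9 and 22.2 CPM in Smg6-deficient cells, against 22.03 and 24.3 CPM in wild-type cells, and the genotypes overlapped (log2 fold change -0.14 ± 0.11 SE, edgeR adjusted p = 0.33). Apoc4, which lies 141 nt from Apoc2, had 0.059 and 0.133 CPM in Smg6-deficient cells, against 0.114 and 0.142 CPM in wild-type cells (log2 fold change -0.43, edgeR adjusted p = 0.52). Outside the cluster Tomm40 (0.31), Nectin2 (0.10) and Clptm1 (-0.19) did not pass the test, although Tomm40 passed without wild-type replicate 1 and Clptm1 without wild-type replicate 2. Within this cluster the fall was called for Apoe and Apoc2 but not for Apoc1 or Apoc4, and the differences between their fold changes were not tested. Gm44805 overlaps both Apoc2 and Apoc4 on their strand, so the counts of Apoc2 and Apoc4 may not be separate measures.

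The fall of Apom stood beside rises of 3 and a fall of 1 of its 8 tested neighbours. D17H6S53E, 141 nt away, had 5.90 and 6.80 CPM in Smg6-deficient cells, against 3.49 and 3.58 CPM in wild-type cells and rose by 0.85 (edgeR adjusted p = 0.0048). Prrc2a rose by 0.53 and Abhd16a by 0.69 (edgeR adjusted p = 0.0044 and 0.0025), whereas Ly6g5b fell by 0.75 (edgeR adjusted p = 0.017), a call that ended without either Smg6-deficient library. Bag6 (0.24), Gpank1 (0.32), Csnk2b (0.10) and Ly6g5c (-0.45) did not pass the test, though the first 3 passed without wild-type replicate 1, and Bag6 also without wild-type replicate 2. Near Ttr, B4galt6 rose by 0.83 (edgeR adjusted p = 0.0012). None of the tested neighbours of Afp (Afm), Rbp4 (Ffar4), Trf (Srprb, Rab6b, Gm20425 and 1300017J02Rik) and Apoa1 (Sik3) passed the test with all libraries, although Rab6b passed without wild-type replicate 1, and Apob has no measured coding neighbour in this range. Apoc3 and Apoa4, which lie beside Apoa1, were too low to test. Beside Trf, Gm20425 overlaps Srprb on the same strand, so Srprb and Gm20425 may not be separate measures.

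**Figure D5:**
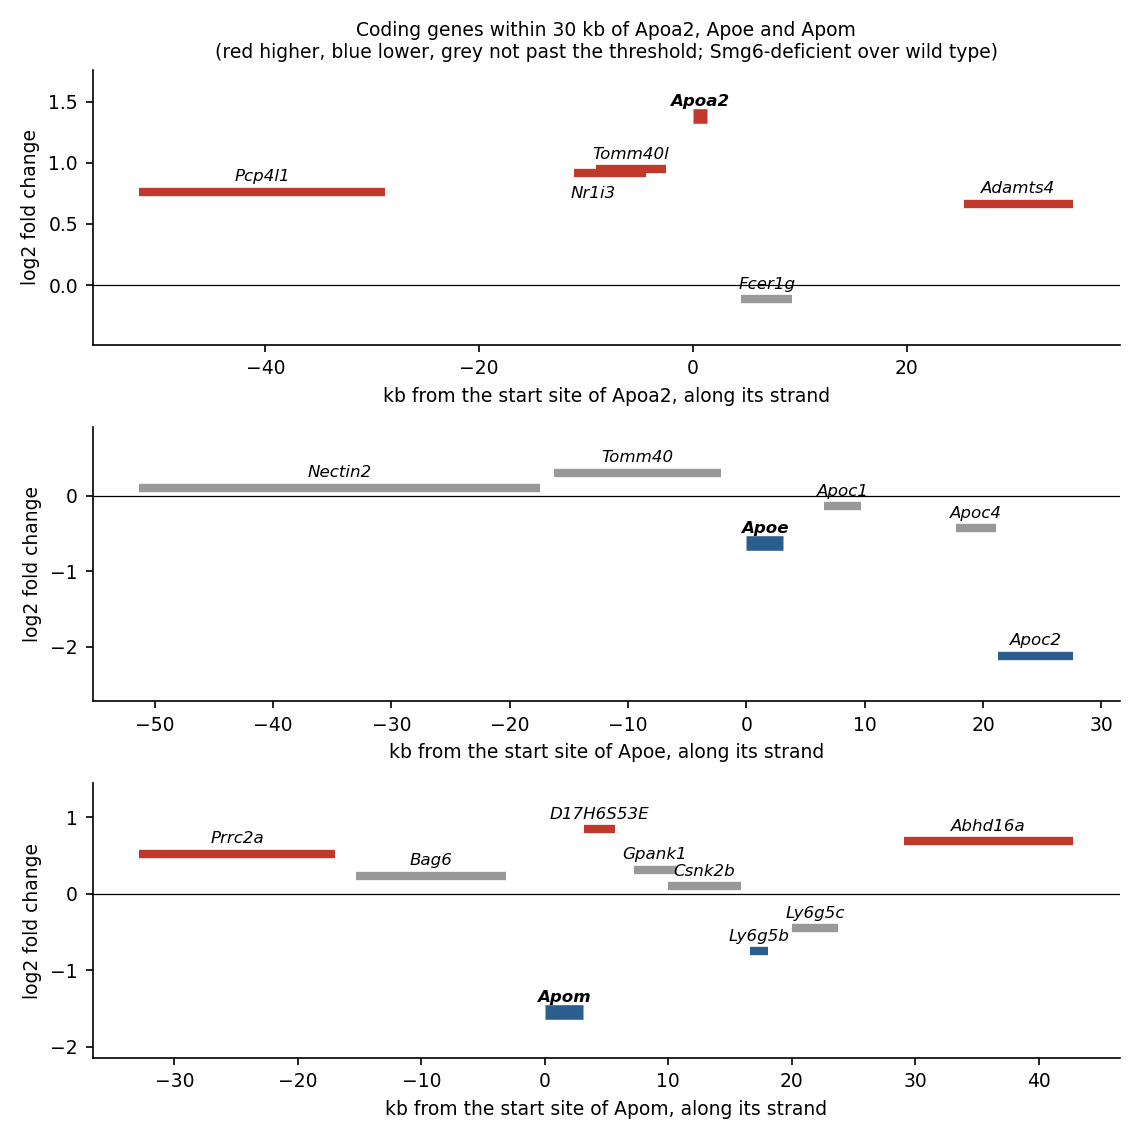
Log2 fold change (y axis, Smg6-deficient over wild type) of Apoa2, Apoe and Apom (thick bars, bold names) and tested coding genes within 30 kb of each, drawn to scale by distance in kb from the start site along the gene's strand (x axis); red is higher, blue lower and grey not past the threshold. Tomm40l and Nr1i3 beside Apoa2 are higher like it, Apoc1 between Apoe and Apoc2 is grey, and D17H6S53E beside Apom is higher while Apom is lower.

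The genes nearest to the mean profile of the called secreted-protein genes were sought among 12341 other genes whose log2 CPM averaged 2 or more. Euclidean distance over the 4 libraries was taken from the mean centred log2 CPM of the 7 genes past the threshold. The 7 include Ttr, which passed the filter on low counts only through the Smg6-deficient libraries. Its log2 ratio between those libraries was -1.96, which weighs on the mean. That mean profile was -0.06 and -0.27 in Smg6-deficient cells, against 0.29 and 0.04 in wild-type cells, and is shallow because it averages 2 rises and 5 falls. The nearest genes were Fignl2, 2010204K13Rik, Lima1, 1700021F05Rik and Gm8186, at distances of 0.014 to 0.038 log2 units, with log2 fold changes of -0.31 to -0.36. Of these, Lima1 (edgeR adjusted p = 0.040) and Gm8186 (edgeR adjusted p just under the threshold) passed the test, and lost the call without wild-type replicate 1 or either Smg6-deficient library. With 4 libraries, such a match describes these libraries only. The 7 genes past the threshold each changed by more than these 5, Apoe least with a fall of 0.63, so the matches are to the mean only.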

How the data were processed

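RNA was extracted with TRIzol, libraries were made with the TruSeq RNA v2 kit, which does not mark strand, and a HiSeq2000 read 50 nt from a single end, per the labels' protocols. The submitters' processing notes name TopHat2 2.0.9 and mm10. Which program counted reads per gene, on which annotation and with what rule for strand or repeated alignments is not given in the sources used here, so reads of overlapping genes cannot be separated. For each gene and library the authors deposited a count of reads (whole numbers) and an RPKM value.

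Symbols and positions came from GENCODE M21 (GRCm38), which matched 35449 of 37224 identifiers (95.2%). The 10 genes and 14 other lists (264 of 265 entries matched, all but Hjv) were chosen with earlier results of these data known. Named genes were the 10 genes, up to 4 called genes per list by adjusted p (every called gene for regulators and other apolipoproteins), coding genes within 30 kb and the 5 nearest profiles; some genes that the rule names are not reported here.

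The edgeR 4.0.16 package in R 4.3.3 was used for the test: low genes were removed by filterByExpr at a minimum count of 10, libraries were scaled with TMM factors, and a two-sided quasi-likelihood F test on genotype used all 4 libraries. Benjamini-Hochberg adjustment ran over 20895 genes, with 0.05 as threshold. The script recovered known changes in simulated counts. SE is the absolute log2 fold change over the square root of F, and each gene had 2 residual degrees of freedom ahead of moderation. The chi-square between replicates, divided by its degrees of freedom, was 42 in Smg6-deficient and 74.3 in wild-type cells, far above counting error. Alternatives used DESeq2 1.42.0, limma 3.58.1, other scalings and filters, a gene length offset, a replicate block and each library left out.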

Additional observations from a re-analysis of the deposited data

How the results depend on the processing

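Apoa2, Apoc2, Apoe and Apom kept direction and call under every alternative run. The count of secreted-protein genes called higher was 1 in place of 2 with a filter of at least 50 counts in 2 libraries, which removed Ttr, and with limma-trend on log2(RPKM + 1) or log2(RPKM + 0.1), where Ttr was at 0.19 (adjusted p = 0.16) and 1.07 (adjusted p = 0.12). Those 2 limma-trend fits called 2700 and 2643 of all genes higher, against 4285 by edgeR, and the cause was not tested. Leaving out each library in turn gave 1 to 2 of the 10 genes higher and 3 to 5 lower, and 2805 to 5578 of all genes higher and 2300 to 4899 lower. The lowest values, 1 and 3, came without Smg6-deficient replicate 1. Hnf4a was not called by limma-trend (adjusted p = 0.061 and 0.059).

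Replicate numbers are shared by the genotypes but no label says that they pair the libraries. With the replicate number as a block 2 of the 10 genes were higher and 5 lower, as without it, and 5074 of all genes were higher and 4613 lower. The correlation across genes of same-numbered deviations was 0.155, over only 2 pairs.

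Signs turned for genes with small changes, and the cause was not tested. With the gene length offset, alone and with the replicate block, Apoc1 was at 0.062 and 0.064, Fcer1g at 0.040 and 0.044 and Sik3 at -0.068 in both. With each library left out in turn, log2 fold changes ran from -0.108 to 0.372 for Trf, -1.095 to 0.068 for Apoc4, -0.232 to 0.013 for Fcer1g, -0.133 to 0.042 for Gm20425, -0.156 to 0.029 for 1300017J02Rik and -0.023 to 0.213 for Csnk2b. Trf was negative without wild-type replicate 1. Over the 96 other named genes, 20 lost their call and 11 gained one in at least 1 alternative. Counts under about 100 per library, as for Afp, Ttr and Apoa1, limit what these data resolve.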
